A study of Mus musculus with 18 samples.

Results

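The 8 transcripts followed here mark the hormone response of luteal and follicular cells, and they were measured in the ovary and uterus libraries of a mouse series. They were chosen by name and matched by gene identifier in both count tables, and all 8 were found among 57010 listed identifiers. Of these, 6 encode receptors, namely Lhcgr, Fshr, Prlr, Ptgfr, Amhr2 and Esr2, whereas Sfrp4 encodes a secreted Wnt antagonist and Parm1 a membrane mucin. Total RNA was sequenced from the ovary and the uterus of C57B6/J mice aged 20 to 25 weeks. The groups were ARE-/- (homozygous), ARE+/- (heterozygous) and WT, with 3 libraries per genotype in each tissue and 18 libraries in all. ARE is, as background, the AU-rich element of the interferon gamma transcript Ifng, and the labels do not spell the name out. The series concerns failed implantation with defective luteinization, CD8 T cells and hypophysitis. Estrous stage, mating and pregnancy are not given in the sources used here. Libraries of a group were taken as separate animals, since the design text counts 3 mice for each genotype, and p-values measure the spread between them. No label says which ovary and uterus shared an animal. The titles mark ovary ARE-/- replicate 6 and uterus WT replicate 1 as backup samples.

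Luteinizing hormone and follicle-stimulating hormone, both made in the pituitary, act on the ovary through LHCGR and FSHR, receptors that raise cAMP. FSHR sits on granulosa cells of growing follicles. LHCGR sits on theca cells and on granulosa cells near ovulation, and it stays on the luteal cells that form from them. In rodents prolactin, through PRLR, JAK2 and STAT5, keeps the corpus luteum making progesterone, and prostaglandin F2 alpha, through PTGFR, ends its life. AMHR2 is the specific receptor of anti-Mullerian hormone, and ESR2 is the main estrogen receptor of granulosa cells. In rodents Sfrp4 is known from ovulatory granulosa cells and corpora lutea. In the rat Parm1 is known from granulosa cells after the ovulatory stimulus.

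The libraries held 38132822 to 46647171 counts in the ovary and 33185496 to 49720354 in the uterus. Ifng had 38 to 51 counts per ARE-/- ovary library, 10 to 28 per ARE+/- library and 0 to 4 per WT library, and in the uterus it had 56 to 130 counts per ARE-/- library, 36 to 70 per ARE+/- library and 0 to 6 per WT library. Levels are given as CPM, reads per library size with TMM correction within a tissue unless stated otherwise. One uterus library, ARE-/- replicate 1, stood apart: its 8 oocyte markers summed to 22.35 CPM, against at most 2.07 CPM in the other 8 uterus libraries, and its 8 luteal markers summed to 407 CPM, against at most 144.3 CPM. It also had the highest sums of smooth muscle (15030 CPM, against at most 6206 CPM in the others), fat cell (6175 CPM, against at most 871.7 CPM) and red cell markers (7265 CPM, against at most 1300 CPM). Its granulosa cell markers, at 387.4 CPM, were below those of uterus WT replicates 1 and 3 (811.2 and 752.9 CPM). Its theca cell markers, at 219.6 CPM, lay within the range of the others (108.6 to 401.9 CPM). Because this library stood apart in several sums, fold changes of the 8 genes that it enters in the ARE-/- uterus are given with and without it. Of the 7 pituitary hormone markers, Fshb and Prl had no count in any library, so transcripts of the FSH beta subunit and of prolactin were not detected in either tissue at this depth.

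In the ovary the luteal transcripts were lowest in ARE-/- mice. Mean levels in ARE-/- ovaries were 0.201 times those in WT ovaries for Sfrp4, 0.228 times for Ptgfr, 0.326 times for Prlr, 0.505 times for Fshr, 0.574 times for Lhcgr and 0.73 times for Esr2. Amhr2 at 0.954 times and Parm1 at 1.16 times lay close to the WT level. The spread within the ARE-/- group was wide, and no gene of the 8 passed the adjusted threshold of 0.05 in any genotype comparison in either tissue. The 3 ARE-/- libraries lay below all 3 WT libraries for Prlr, Ptgfr and Sfrp4.

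Lhcgr (ENSMUSG00000024107.8) and Fshr (ENSMUSG00000032937.6) are neighbours. In the GENCODE M32 annotation of the files Lhcgr spans chr17:89044702-89099404 and Fshr chr17:89292380-89508103, both on the minus strand, with 192975 bases between them. Lhcgr, the luteinizing hormone receptor, had 160.2, 100.3 and 611.8 CPM in ARE-/- ovaries, 418.3, 442.2 and 192.8 CPM in ARE+/- ovaries, and 498.5, 648.7 and 371.8 CPM in WT ovaries. ARE-/- replicates 2 and 3 were below every other library, while ARE-/- replicate 6 was the second highest of all 9, so the groups overlapped. Fitted over the 9 libraries, the log2 fold change of ARE-/- against WT was -0.80 ± 0.69 (SE), with a 95% interval of -2.42 to 0.82 and an adjusted p of 0.518 by edgeR's quasi-likelihood test.

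Fshr, the follicle-stimulating hormone receptor, had 13.98, 2.592 and 12.17 CPM in ARE-/- ovaries, 19.95, 12.44 and 16.78 CPM in ARE+/- ovaries, and 23.63, 10.39 and 22.86 CPM in WT ovaries. ARE-/- replicate 3 held the lowest level, and WT replicate 2 lay within the range of the mutant libraries. For ARE-/- against WT the log2 fold change was -0.98 ± 0.58 (SE; 95% interval -2.33 to 0.36; edgeR adjusted p = 0.33). The order of libraries was not that of Lhcgr: ARE-/- replicate 6, second for Lhcgr, was seventh for Fshr.

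**Figure D1:**
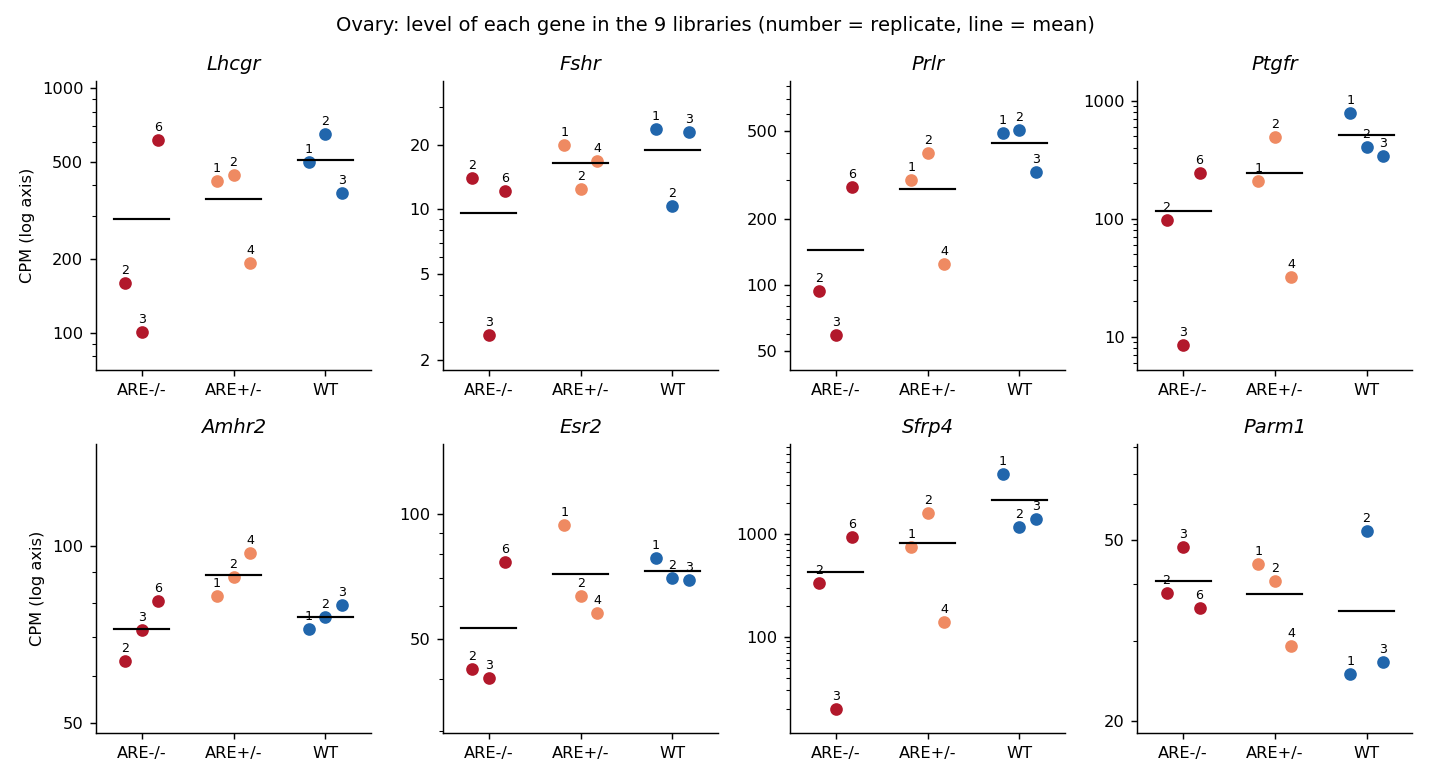
CPM of the 8 genes in each of the 9 ovary libraries on log axes, by genotype. Each point is 1 library with its replicate number, and the line is the group mean. For Prlr, Ptgfr and Sfrp4 all ARE-/- points lie below all WT points, and ARE-/- replicate 6 is the highest of its group for these 3 genes and for Lhcgr.

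Sequence upstream of 4 start sites is shown because the neighbours Lhcgr and Fshr differ there in base composition and motifs, and because the Prlr and Amhr2 stretches hold other motifs of the search. RefSeq start sites of build GRCm38.p6 were found for 7 of the 8 genes (9 start sites), and Sfrp4 had none in the table. The 250 bases before each start were searched on both strands for 5 short motifs. The first was the Sp1 box, written GGGCGG. The half-site that SF-1 and LRH-1 bind was written AAGGTCA. The cAMP response element was written TGACGTCA and the STAT element TTCNNNGAA. The GATA box was written AGATAA. None of the matches found overlapped another. Each line reads 5′ to 3′ on the gene's strand and ends at the base before the start, with matches in capitals.
Lhcgr (chr17:88792015-88792264, minus strand): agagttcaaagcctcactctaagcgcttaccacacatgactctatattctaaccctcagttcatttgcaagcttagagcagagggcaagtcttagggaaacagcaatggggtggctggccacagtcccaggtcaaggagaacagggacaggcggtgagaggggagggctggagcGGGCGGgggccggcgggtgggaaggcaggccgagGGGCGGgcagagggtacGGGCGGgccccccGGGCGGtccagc
Fshr (chr17:89200676-89200925, minus strand): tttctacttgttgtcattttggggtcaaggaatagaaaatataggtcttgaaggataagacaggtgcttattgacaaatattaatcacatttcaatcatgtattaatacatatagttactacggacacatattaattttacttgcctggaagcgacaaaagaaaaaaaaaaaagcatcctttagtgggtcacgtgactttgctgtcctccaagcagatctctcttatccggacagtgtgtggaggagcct
Prlr second start (chr15:10223656-10223905, plus strand): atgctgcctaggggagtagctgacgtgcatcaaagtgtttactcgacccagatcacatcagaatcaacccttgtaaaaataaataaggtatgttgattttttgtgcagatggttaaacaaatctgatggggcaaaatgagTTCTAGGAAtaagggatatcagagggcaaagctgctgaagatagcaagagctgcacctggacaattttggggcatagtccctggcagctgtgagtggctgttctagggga
Amhr2 (chr15:102445117-102445366, plus strand): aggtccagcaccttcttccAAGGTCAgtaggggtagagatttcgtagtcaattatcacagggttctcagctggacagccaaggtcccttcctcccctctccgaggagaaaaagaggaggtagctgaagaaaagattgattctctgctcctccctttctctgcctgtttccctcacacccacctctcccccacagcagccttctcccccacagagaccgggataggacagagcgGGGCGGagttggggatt
The Lhcgr stretch was 63.2% G and C with 4 Sp1 boxes at -76, -42, -25 and -12 from the start. The stretch of its neighbour Fshr was 36.8% G and C and held no match. The second of 3 Prlr start sites had a STAT element match at -110, and Amhr2 had the SF-1 half-site at -231 and an Sp1 box at -17. Ptgfr, not shown, had an Sp1 box at -30. Over all 32851 promoters of the same length, 32.7% held the Sp1 box, 7.02% the STAT element, 4.08% the SF-1 half-site, 1.55% the cAMP response element and 9.99% the GATA box. A match is a run of letters in this window and was not tested as a binding site.

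Prlr (ENSMUSG00000005268.21; chr15:10177741-10349266, plus strand), the receptor through which prolactin sustains rodent corpora lutea, had 94.09, 59.22 and 278.5 CPM in ARE-/- ovaries, 300.5, 397.8 and 124.4 CPM in ARE+/- ovaries, and 491.3, 506.9 and 326.3 CPM in WT ovaries. The highest ARE-/- library was below the lowest WT library, and ARE+/- libraries lay on both sides of that gap. The log2 fold change of ARE-/- against WT was -1.62 ± 0.65 (SE; 95% interval -3.15 to -0.09). Its unadjusted p of 0.0409 became 0.167 after adjustment over 24457 genes with edgeR. The span of Prlr overlaps that of Gm21973 on the same strand, which had at most 483 counts in a library and may share reads.

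Ptgfr (ENSMUSG00000028036.7; chr3:151502139-151543267, minus strand), the luteolytic prostaglandin F2 alpha receptor, had 96.67, 8.463 and 243.6 CPM in ARE-/- ovaries, 210.6, 496.5 and 32.2 CPM in ARE+/- ovaries, and 783.3, 409.9 and 337.7 CPM in WT ovaries. ARE-/- replicate 3 and ARE+/- replicate 4 were far below all other libraries, and the range over the 9 ovaries was 92.6-fold. For ARE-/- against WT the log2 fold change was -2.13 ± 1.28 (SE; 95% interval -5.18 to 0.91; edgeR adjusted p = 0.348). The gene overlaps Gm43618 on the other strand, which had at most 1102 counts in a library. The counts were made without strand, so reads of the pair cannot be told apart.

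Sfrp4 (ENSMUSG00000021319.8; chr13:19807274-19817164, plus strand), whose product binds Wnt proteins outside the cell, had 331.2, 19.65 and 930.9 CPM in ARE-/- ovaries, 748.1, 1578 and 138.1 CPM in ARE+/- ovaries, and 3848, 1156 and 1383 CPM in WT ovaries. It varied the most of the 8 genes, by 195.9-fold over the 9 libraries. Again ARE-/- replicate 3 and ARE+/- replicate 4 were lowest, and the ARE-/- and WT groups did not overlap. ARE-/- against WT gave a log2 fold change of -2.32 ± 1.37 (SE; 95% interval -5.58 to 0.94; edgeR adjusted p = 0.341).

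Amhr2 (ENSMUSG00000023047.12; chr15:102353802-102363068, plus strand), the anti-Mullerian hormone receptor, had 63.75, 71.82 and 80.63 CPM in ARE-/- ovaries, 82.03, 88.34 and 97.27 CPM in ARE+/- ovaries, and 72.11, 75.46 and 79.11 CPM in WT ovaries. This was the steadiest of the 8 genes, with a 1.53-fold range over the 9 libraries. ARE-/- against WT gave a log2 fold change of -0.07 ± 0.10 (SE), and its 95% interval of -0.30 to 0.16 bounds the difference closely (edgeR adjusted p = 0.73).

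Esr2 (ENSMUSG00000021055.15; chr12:76167193-76224033, minus strand), the estrogen receptor of granulosa cells, had 42.45, 40.36 and 76.39 CPM in ARE-/- ovaries, 94.05, 63.48 and 57.63 CPM in ARE+/- ovaries, and 78.42, 70.24 and 69.3 CPM in WT ovaries. ARE-/- replicates 2 and 3 were the lowest of the 9, and ARE-/- replicate 6 lay inside the WT range. The log2 fold change of ARE-/- against WT was -0.45 ± 0.27 (SE; edgeR adjusted p = 0.324). The span of Esr2 overlaps that of Gm7862 on the same strand, which had at most 66 counts in a library.

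Parm1 (ENSMUSG00000034981.10; chr5:91665474-91774753, plus strand), the mucin-like protein, had 38.24, 48.19 and 35.36 CPM in ARE-/- ovaries, 44.39, 40.68 and 29.3 CPM in ARE+/- ovaries, and 25.36, 52.41 and 27 CPM in WT ovaries. WT replicate 2 was the highest library and the other WT libraries the lowest, so the WT group enclosed both mutant groups. The log2 fold change of ARE-/- against WT was 0.22 ± 0.29 (SE; edgeR adjusted p = 0.69).

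Against the rest of the transcriptome, 0 of the 8 genes were called for ARE-/- against WT in the ovary, where 10.5% of 24457 tested genes were called by edgeR. At an unadjusted p under 0.05 the count was 1 (Prlr), against 26.6% of all genes, and DESeq2 also called 0. The 3 genes whose ARE-/- libraries lay wholly below WT stand beside 14.5% of all genes with that order. The median log2 fold change was -0.89 over the 8 genes and 0.02 over all tested genes. This outcome changed when ARE-/- replicate 6 was left out, which kept replicates 2 and 3 in the group. Without replicate 6 edgeR called 3 of the 8 as lower, Lhcgr at -1.98 (adjusted p = 0.0387), Prlr at -2.54 (adjusted p = 0.034) and Esr2 at -0.83 (adjusted p = 0.0262). In that fit 12.9% of all genes were called either way, and 1231 of 25304 were called lower. Replicate 6 was the highest ARE-/- library for each of these 3 genes, so leaving it out lowers their ARE-/- means.

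**Figure D2:**
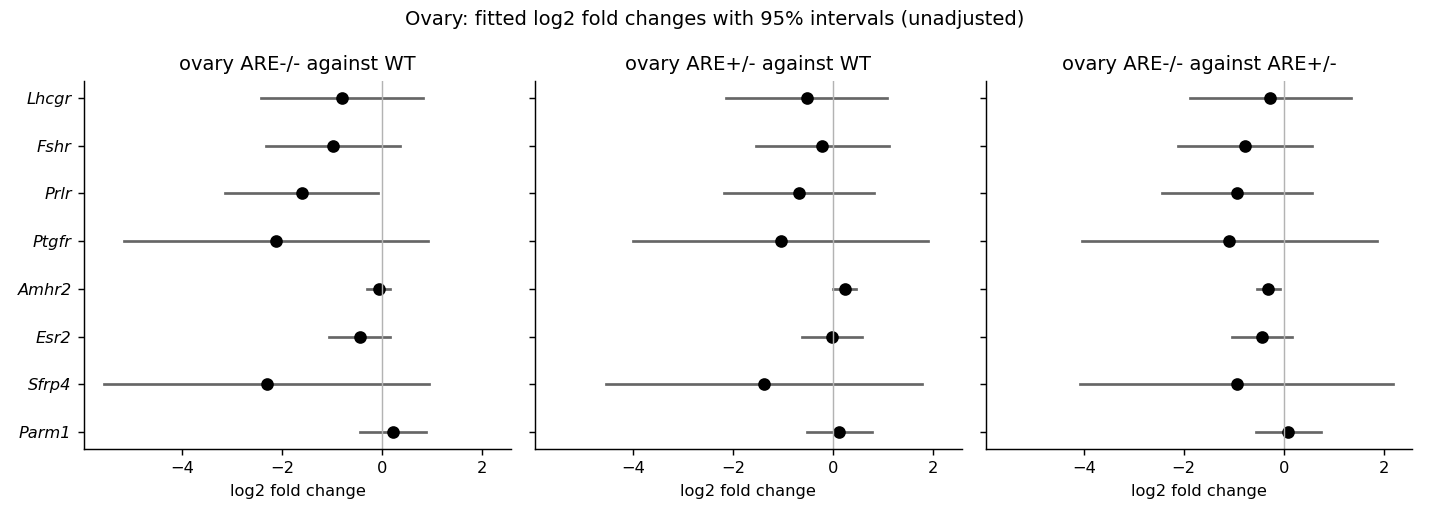
Fitted log2 fold changes in the ovary for the 8 genes, with unadjusted 95% intervals, in 3 comparisons: ARE-/- against WT, ARE+/- against WT, and ARE-/- against ARE+/-. Intervals are narrow for Amhr2 and several log2 units wide for Ptgfr and Sfrp4. For ARE-/- against WT only the Prlr interval lies wholly below 0.

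For ARE+/- against WT in the ovary none of the 8 genes was called by edgeR or DESeq2, where 1.71% of all genes were called by edgeR. At an unadjusted p under 0.05 the count was 1, Amhr2 (15.7% of all genes). Its 3 ARE+/- libraries lay above all WT libraries, an order found in 14.7% of genes, with a log2 fold change of 0.24 ± 0.10 (SE) and an edgeR adjusted p of 0.297. Sfrp4 at -1.37 ± 1.33, Ptgfr at -1.05 ± 1.24, Prlr at -0.69 ± 0.64 and Lhcgr at -0.53 ± 0.68 (log2 fold change ± SE) had intervals that included 0. ARE+/- replicate 4 was the lowest of its group for these 4 genes and the highest for Amhr2.

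For ARE-/- against ARE+/- in the ovary the count called was also 0 by edgeR, where 0.0491% of all genes were called, and 0 by DESeq2. At an unadjusted p under 0.05 the count was 1, again Amhr2 (8.39% of genes): all 3 ARE-/- libraries lay below all 3 ARE+/- libraries, an order found in 6.67% of genes. Its log2 fold change was -0.31 ± 0.10 (SE), with an unadjusted p of 0.0137 and an edgeR adjusted p of 0.525. The highest Amhr2 mean was that of the heterozygotes: 72.1 ± 8.44 CPM in ARE-/-, 89.2 ± 7.66 CPM in ARE+/- and 75.6 ± 3.50 CPM in WT ovaries (SD, n = 3 each). In a test of any genotype difference the 8 genes gave 0 calls by edgeR, where 5.25% of genes were called, and 0 by DESeq2, with 1 at an unadjusted p under 0.05 (21% of genes). The authors' deposited table of a likelihood-ratio test over genotypes lists no gene of the 8 under its threshold of 1e-04 in either tissue, where it lists 719 ovary and 514 uterus genes. The smallest ovary values in the authors' deposited table are an adjusted p of 0.19 for Amhr2 and 0.234 for Prlr.

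The luteal transcripts varied together from ovary to ovary. Over the 9 libraries, log2 CPM of Ptgfr and Sfrp4 had a Pearson r of 0.992, Lhcgr and Prlr 0.953, Prlr and Ptgfr 0.937, and Lhcgr and Sfrp4 0.876. After removing genotype means, r was 0.987 for Ptgfr with Sfrp4 and 0.972 for Lhcgr with Prlr, so the shared course was present within genotypes. Esr2 followed Lhcgr and Prlr as well, with an r of 0.861 and 0.837. Amhr2 had an r of at most 0.376 with any of the others. Parm1 had an r of -0.644 with Fshr and -0.0957 with Lhcgr. These values describe 9 libraries that share tissue dissection and cell mixture.

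A list of 8 luteal markers, genes of steroid synthesis, steroid breakdown and cholesterol uptake such as Star, Cyp11a1, Akr1c18 and Scarb1, contains none of the 8 genes followed here. Its summed level was 4063, 4081 and 11150 CPM in ARE-/- ovaries, 8616, 13390 and 4845 CPM in ARE+/- ovaries, and 12480, 17000 and 9754 CPM in WT ovaries. The same 3 libraries that were low in Lhcgr and Prlr, ARE-/- replicates 2 and 3 and ARE+/- replicate 4, were low in this sum, and ARE-/- replicate 6 lay within the WT range. None of the 8 markers was called for ARE-/- against WT with all libraries. Without ARE-/- replicate 6, Cyp11a1 and Fdxr were called, where 12.9% of all genes were called. Over the 9 libraries the sum had an r of 0.961 with Prlr, 0.945 with Lhcgr, 0.864 with Ptgfr, 0.825 with Sfrp4 and 0.747 with Esr2. Its r was 0.382 with Fshr, 0.189 with Amhr2 and -0.0011 with Parm1. In whole ovary RNA fewer luteal cells and less receptor RNA per luteal cell cannot be told apart.

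**Figure D3:**
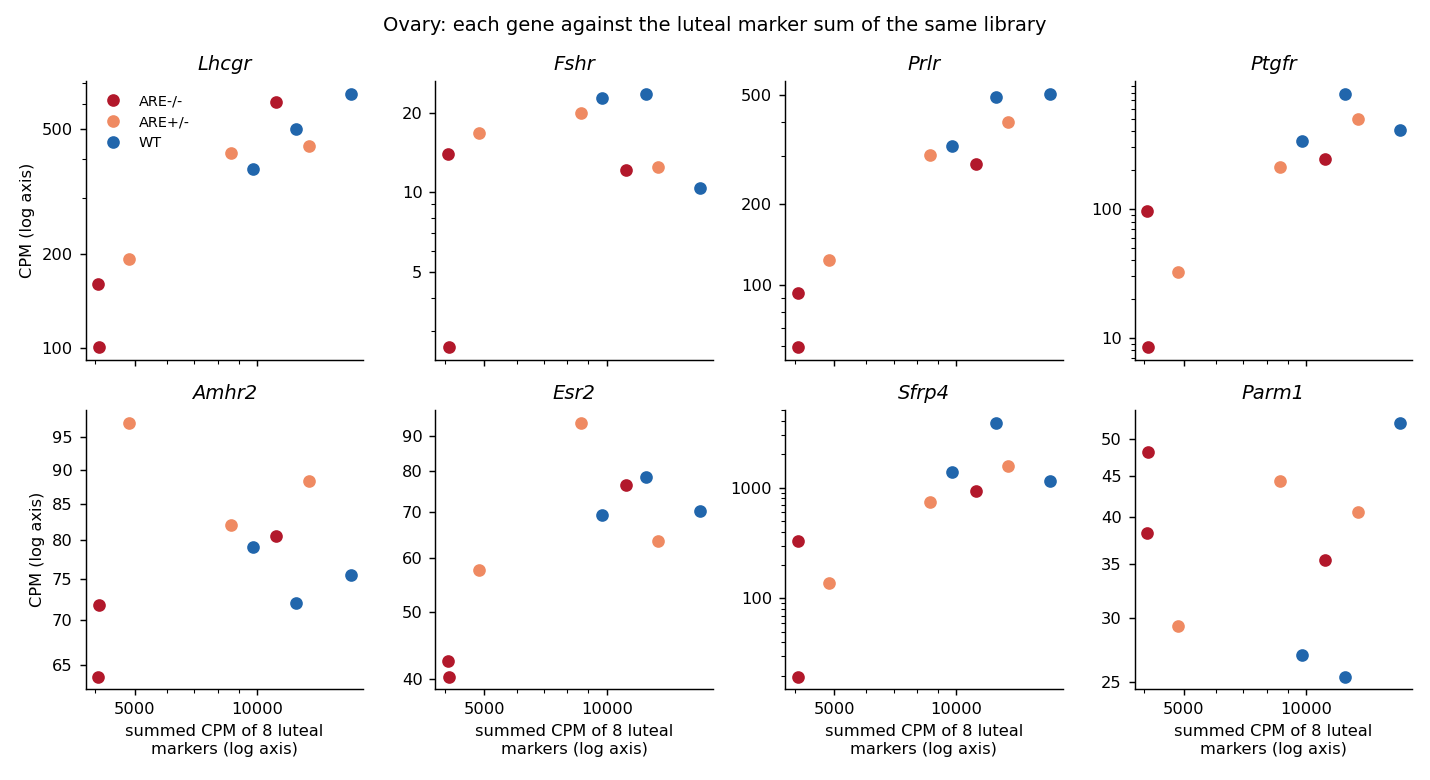
CPM of each gene in the 9 ovary libraries against the summed CPM of 8 luteal markers in the same library, both on log axes, coloured by genotype. Lhcgr and Prlr climb with the marker sum across genotypes, whereas Amhr2 and Parm1 show no such course. In 2 ARE-/- libraries the points sit at the low end of the sum, at 4063 and 4081 CPM.

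Fshr ran closer to the follicle markers than to the luteal markers. The 11 markers of granulosa cells in growing follicles summed to 2900, 1594 and 3145 CPM in ARE-/- ovaries, 3181, 2392 and 3406 CPM in ARE+/- ovaries, and 4028, 3066 and 3669 CPM in WT ovaries, with 0 of 11 called for ARE-/- against WT. Fshr had an r of 0.931 with this sum, Sfrp4 0.732, Ptgfr 0.6555, Esr2 0.6553, Prlr 0.606, Lhcgr 0.592, Amhr2 0.159 and Parm1 -0.67 (9 libraries). Esr2 was thus closer to the luteal sum than to this one. The 8 oocyte markers summed to 88.5 to 248 CPM in ARE-/- ovaries, 125 to 206 CPM in ARE+/- ovaries and 140 to 160 CPM in WT ovaries.

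Markers of several other cell types were higher in the ARE-/- ovary libraries. All 7 T cell markers rose in ARE-/- ovaries against WT by edgeR, with sums of 49.2, 83.9 and 37.2 CPM in ARE-/- and 6.52, 7.39 and 6.5 CPM in WT ovaries. Over all genes, 1544 of 24457 tested were called higher in the same comparison. Of 7 macrophage markers 5 rose, and all 6 markers of oviduct and ovarian surface epithelium rose, with sums of 3355 to 3908 CPM in ARE-/- and 1552 to 2181 CPM in WT ovaries. Of 7 markers of uterine stroma and epithelium 2 rose, Ltf and Emx2, and the sums did not overlap, at 545 to 598 CPM in ARE-/-, 472 to 540 CPM in ARE+/- and 146 to 282 CPM in WT ovaries. None of 6 fat cell markers was called, and they summed to 637, 1056 and 28.8 CPM in ARE-/-, 649, 102 and 348 CPM in ARE+/-, and 80.5 to 122 CPM in WT ovaries. The 2 ARE-/- libraries low in luteal transcripts were high in fat markers, and so was ARE+/- replicate 1, whose luteal marker sum was 8616 CPM. Of 6 smooth muscle markers none was called for ARE-/- against WT. They summed to 3576, 3079 and 1766 CPM in ARE-/-, 1459, 1655 and 2788 CPM in ARE+/-, and 1735 to 1989 CPM in WT ovaries. Their highest sums were in ARE-/- replicates 2 and 3 and ARE+/- replicate 4, the libraries lowest in the luteal sum. Macrophage sums were also highest there, at 1698, 1472 and 1029 CPM, against at most 995.5 CPM in the others. The part of this mixture in the receptor levels was not tested.

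Levels were also compared as ratios within a library. Prlr per Lhcgr, a ratio of CPM values, was 0.588, 0.590 and 0.455 in ARE-/- ovaries, 0.718, 0.9 and 0.645 in ARE+/- ovaries, and 0.986, 0.782 and 0.878 in WT ovaries. The ARE-/- libraries lay below all WT and all ARE+/- libraries, including replicate 6, whose Lhcgr level was within the WT range. Ptgfr per Lhcgr was 0.604, 0.0844 and 0.398 in ARE-/- and 1.57, 0.632 and 0.908 in WT ovaries. These did not overlap, but the gap was narrow (0.604 against 0.632). The ARE+/- ratios, 0.504, 1.12 and 0.167, lay on both sides of it. Sfrp4 per Lhcgr overlapped, at 2.07, 0.196 and 1.52 in ARE-/- and 7.72, 1.78 and 3.72 in WT ovaries. Sfrp4 per Ptgfr was alike in all groups, with means of 3.19 ± 0.78 in ARE-/-, 3.67 ± 0.57 in ARE+/- and 3.94 ± 1.06 in WT ovaries (SD, n = 3 each). The ratios are a description and were not tested. The share of all genes whose ratio to Lhcgr has the same order was not counted, so no background stands beside them.

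**Figure D4:**
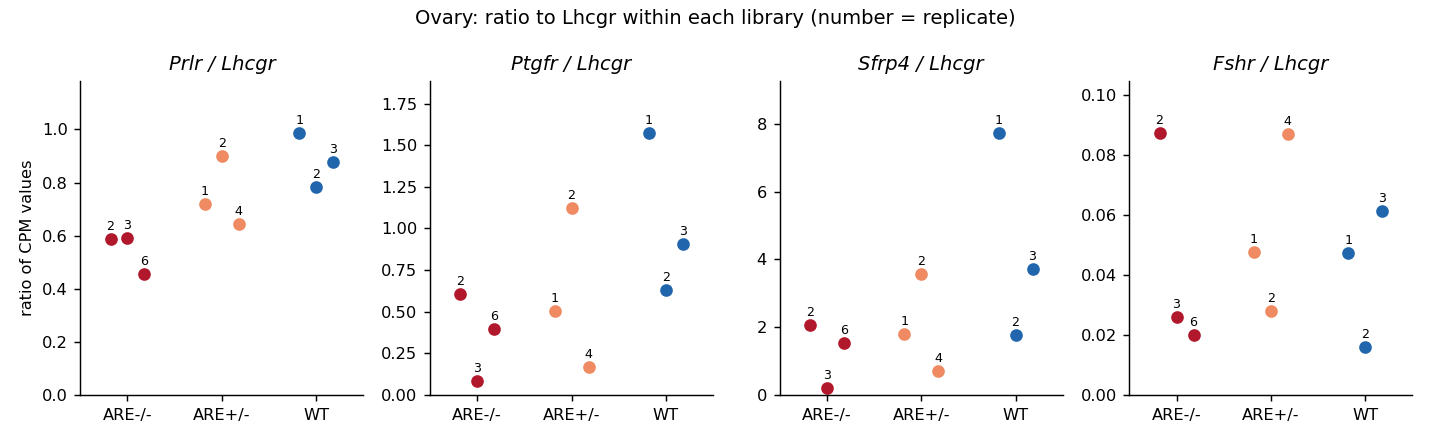
Ratios of CPM values to Lhcgr within each of the 9 ovary libraries for Prlr, Ptgfr, Sfrp4 and Fshr, by genotype, with replicate numbers. For Prlr the 3 ARE-/- ratios (0.455 to 0.590) lie below the WT ratios (0.782 to 0.986), and for Fshr the groups overlap.

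Over the 18654 genes that averaged 1 CPM or more in the ovary, the pattern most like that of Lhcgr over 9 libraries (Pearson r of log2 CPM) was that of Runx1 (0.991) and Ppp1cc (0.99). The nearest to Prlr were Idh1 (0.983) and Tgfa (0.981). Fshr was nearest to Inha (0.981), an inhibin subunit that is also 1 of the 11 granulosa markers, and to Tub (0.961). Ptgfr was nearest to its overlapping partner Gm43618 (0.99), with which it may share reads, and to Kcnab3 (0.989), which was also nearest to Sfrp4 (0.991), followed by Slc5a10 (0.984). Esr2 was nearest to E2f7 (0.971) and Bora (0.967), and Parm1 to Cbx7 (0.97) and Aldh4a1 (0.969). Amhr2 had no close match, the best being Mcm8 (0.869) and Gm13070 (0.863).

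Genes that act with these receptors were counted in 7 lists of 123 genes. In ARE-/- against WT ovaries 6 rose and 15 fell by edgeR (17.1%, against 10.5% of all genes). Without ARE-/- replicate 6 the counts were 12 and 15, and 17 of the 21 were called with and without it.

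Of 20 genes of cAMP signalling, the pathway of LHCGR and FSHR, 2 rose, 3 fell and 15 did not pass. Arrb2, the arrestin that takes activated receptors off the surface, rose to 57.9 ± 8.05 CPM in ARE-/- ovaries, against 27 ± 1.93 CPM in WT ovaries (log2 fold change 1.10, edgeR adjusted p = 0.00234). Pde8a, a phosphodiesterase that degrades cAMP, fell to 48.9 ± 0.0613 CPM in ARE-/- ovaries, against 68.5 ± 5.91 CPM in WT ovaries (-0.49, edgeR adjusted p = 0.00935), and a second phosphodiesterase, Pde10a, fell by 0.93 on the log2 scale. Adcy9, an adenylyl cyclase, fell by 0.92. The direction was thus not uniform: both a cAMP source and cAMP-degrading enzymes fell.

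Of 15 genes of prolactin receptor signalling 1 rose and none fell. Socs1, an inhibitor of JAK and STAT signalling that interferon also induces, rose to 21.2 ± 1.67 CPM in ARE-/- ovaries, against 7.68 ± 2.02 CPM in WT ovaries (log2 fold change 1.46, edgeR adjusted p = 0.00215). Of the signalling genes, Jak2 had means of 78.2 CPM in ARE-/- and 70.7 CPM in WT ovaries. Stat5b had 126 CPM in ARE-/- and 152 CPM in WT ovaries, and neither was called. Stat3 was called higher only without ARE-/- replicate 6 (log2 fold change 0.39, edgeR adjusted p = 0.0309). Akr1c18, which inactivates progesterone and is held down by prolactin in rodents, had 12.4 ± 12.4 CPM in ARE-/- and 516 ± 544 CPM in WT ovaries, and with this spread the edgeR adjusted p was 0.191. Hsd17b7, a steroid enzyme first known for its association with the prolactin receptor, had 246 ± 393 CPM in ARE-/- and 872 ± 819 CPM in WT ovaries (edgeR adjusted p = 0.566).

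Of 19 genes of PTGFR signalling and prostaglandin handling 2 rose and 1 fell. Pla2g4a, the phospholipase that releases arachidonic acid, rose to 47.5 ± 6.64 CPM in ARE-/- ovaries, against 28 ± 2.71 CPM in WT ovaries (log2 fold change 0.76, edgeR adjusted p = 0.00567), and Ptgs1, a cyclooxygenase, rose by 0.69. Gnaq, the G protein subunit to which PTGFR couples, fell to 95.9 ± 5.07 CPM in ARE-/- ovaries, against 136 ± 7.12 CPM in WT ovaries (-0.50, edgeR adjusted p = 0.0074).

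Of 16 genes of anti-Mullerian hormone and BMP signalling none rose and 4 fell, though Amhr2 itself was at WT level. These were Smad9, a signal transducer of this branch (log2 fold change -1.83, edgeR adjusted p = 0.00695), and the receptors Bmpr2 (-0.86), Acvr1 (-0.71) and Bmpr1a (-0.35). Smad9 was at 4.06 ± 1.28 CPM in ARE-/- ovaries, against 14.4 ± 5.48 CPM in WT ovaries. Amh, the ligand, had 173 ± 62.2 CPM in ARE-/- and 144 ± 19.5 CPM in WT ovaries (edgeR adjusted p = 0.637).

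Of 15 steroid receptors and cofactors none rose and 4 fell, among them Greb1, an estrogen-responsive gene (-0.91), and the cofactors Nrip1 (-0.64) and Ncoa2 (-0.45 on the log2 scale). Of 19 Wnt genes around Sfrp4, Dkk3 rose (0.71) and the coreceptor Lrp6 fell (-0.40). Of 19 other hormone and growth factor receptors, Igf1r (-0.57) and Insr (-0.40), the receptors of insulin-like growth factor 1 and insulin, fell. Without ARE-/- replicate 6, Insr, Lrp6, Ncoa2 and Nrip1 had edgeR adjusted p-values of 0.0591, 0.0508, 0.0527 and 0.0682. In ARE+/- against WT ovaries the 123 genes gave 1 rise and 2 falls (2.44%, against 1.71% of all genes): Pla2g4a rose by 0.58 on the log2 scale, and Pde8a was among those that fell, by 0.48.

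Per exon length, the WT ovary ranked the 8 genes from Sfrp4 at 510 ± 357 RPKM down to Parm1 at 6.89 ± 2.99 RPKM (SD, n = 3). RPKM is CPM divided by the exon length in kilobases. In between were Ptgfr at 76.1 ± 35.7, Lhcgr at 74.2 ± 20.3, Amhr2 at 38.9 ± 1.81, Prlr at 33.7 ± 7.63, Esr2 at 21.6 ± 1.49 and Fshr at 8.03 ± 3.15 RPKM. The libraries of Ptgfr and Lhcgr, of Amhr2 and Prlr, and of Fshr and Parm1 overlapped, so the order within these pairs is not set. For Prlr the length counts the exons of all isoforms, 13120 bases, which lowers its RPKM. In ARE-/- ovaries Amhr2 at 37.1 ± 4.35 RPKM stood above Prlr at 11 ± 8.98 RPKM with no overlap, and Fshr at 4.06 ± 2.59 RPKM was last.

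Set against the uterus, 7 of the 8 genes were ovarian. In WT ovaries against WT uteri edgeR called 7 higher and none lower over 18 libraries, where 13.3% of 26682 genes were called higher. Lhcgr had 14818 to 25472 counts per WT ovary and 27 counts over the 3 WT uteri together (log2 fold change 11.03 ± 1.61 SE, adjusted p = 0.000206). Fshr, with 4 counts over the 3 WT uteri, had 8.95 ± 1.496 (adjusted p = 0.000526), and Esr2, with 22 counts, had 8.54 ± 1.54 (adjusted p = 0.00101). At so few counts these fitted values depend on the fit's handling of counts near 0. Prlr, Ptgfr, Amhr2 and Sfrp4 were present in every uterus library. Their log2 fold changes for WT ovary against WT uterus were 4.48 ± 0.62 for Prlr (adjusted p = 0.000123), 5.46 ± 1.14 for Ptgfr (0.00282), 4.04 ± 0.78 for Amhr2 (0.00154) and 4.58 ± 1.17 for Sfrp4 (0.0101), all by edgeR. The Sfrp4 call was lost without uterus WT replicate 1 or 3, with edgeR adjusted p-values of 0.0517 and 0.0514. Parm1 was the exception, at 0.56 ± 0.42 (95% interval -0.34 to 1.47; edgeR adjusted p = 0.371).

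The tissue difference ran through the partners as well. Of the 123 pathway genes 39 were higher and 21 lower in the WT ovary (48.8%, against 25.2% of all genes). Bmpr1b, a BMP receptor, had 82.5 ± 10.4 CPM in WT ovary and 3.80 ± 0.534 CPM in WT uterus, and Prkar2b, a regulatory subunit of protein kinase A, 508 ± 168 CPM in WT ovary and 12.2 ± 1.39 CPM in WT uterus. The uterus had more Esr1, at 132 ± 22.6 CPM in WT ovary and 404 ± 112 CPM in WT uterus, which is the opposite of Esr2. The CPM values of these 3 genes use TMM correction over all 18 libraries, so they differ slightly from levels scaled within a tissue.

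**Figure D5:**
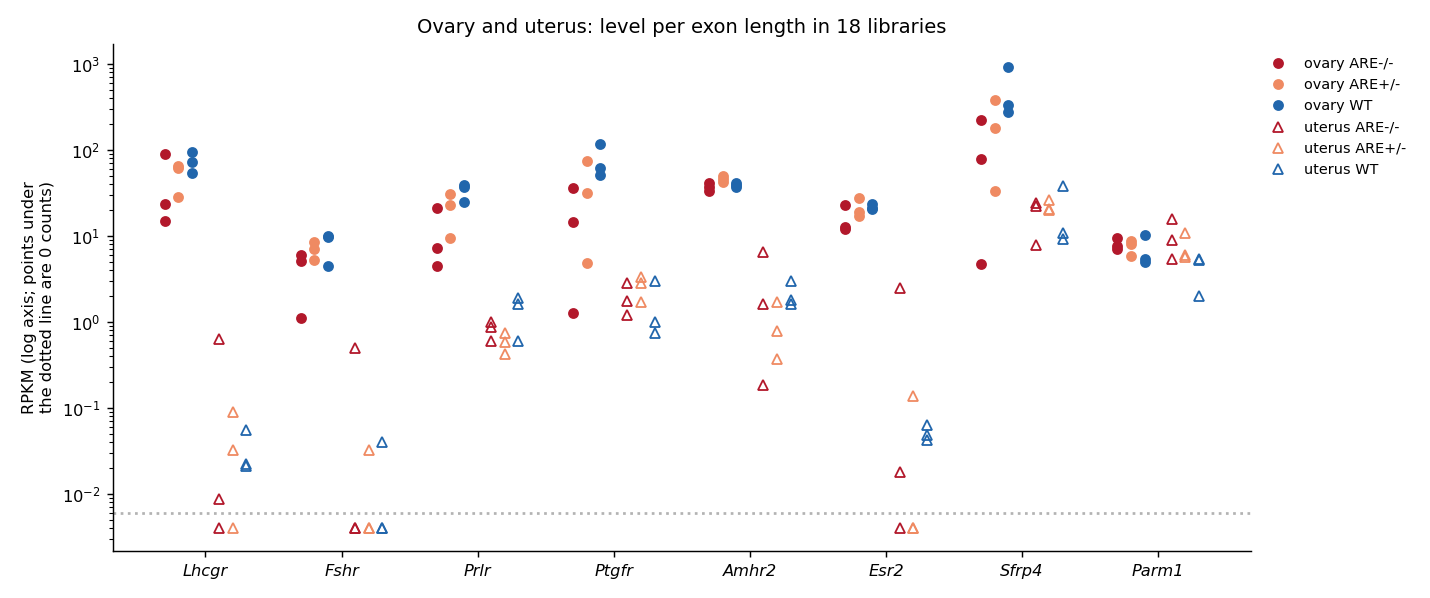
RPKM of the 8 genes in 18 libraries on a log axis, with ovary as filled circles and uterus as open triangles, coloured by genotype. Points under the dotted line are libraries with 0 counts. The 2 tissues do not overlap for Lhcgr, Fshr, Prlr, Amhr2 and Esr2. They overlap for Parm1, and also for Ptgfr and Sfrp4, with ovary ARE-/- replicate 3 at 1.262 and 4.701 RPKM. For Lhcgr, Fshr and Esr2, 1 uterus ARE-/- triangle lies high above its group.

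In the uterus the gonadotropin receptors and Esr2 were near the limit of detection, with 1 exception. Fshr had no count in 6 of 9 libraries, where 3 counts, the limit a count of 0 allows, would be 0.0568 to 0.0898 CPM. Mates were counted singly, so 3 fragments can give 6 counts, which would be 0.114 to 0.18 CPM. Uterus ARE-/- replicate 1 alone held 156 counts of Lhcgr, 42 of Fshr and 297 of Esr2, whereas the other 8 uterus libraries held at most 24, 4 and 18. It is the library whose oocyte and luteal marker sums were the highest in the uterus, as given above, while its granulosa and theca marker sums were not. Whether ovary tissue entered this sample was not tested.

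Genotype comparisons in the uterus covered 6 of the 8 genes, since Fshr and Esr2 did not pass the low-count filter. None was called for ARE-/- against WT, where edgeR called 3.75% of 24277 genes, for ARE+/- against WT (1.14%), for ARE-/- against ARE+/- (0%) or for any genotype difference (2.25%). DESeq2 gave 0 in the same 4 tests. The numbers at an unadjusted p under 0.05 were 1, 1, 0 and 1, against 19.9%, 14.1%, 4.87% and 15.7% of all genes.

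Parm1 was the gene with the smallest p for ARE-/- against WT, at 80.33, 27.21 and 45.36 CPM in ARE-/- uteri, 29.94, 28.53 and 54.92 CPM in ARE+/- uteri, and 27.56, 10.12 and 26.58 CPM in WT uteri. All 3 ARE+/- libraries and 2 of 3 ARE-/- libraries lay above the WT range, and 15.7% of genes had all ARE+/- above all WT libraries. The log2 fold changes were 1.25 ± 0.48 for ARE-/- against WT (unadjusted p = 0.0264, adjusted p = 0.186 by edgeR) and 0.82 ± 0.47 for ARE+/- against WT (edgeR adjusted p = 0.49). ARE-/- replicate 1 was the highest of the 9 libraries, and without it the value of ARE-/- against WT was 0.76 (edgeR adjusted p = 0.411).

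Prlr in the uterus had 11.41, 12.88 and 7.785 CPM in ARE-/-, 9.767, 7.619 and 5.575 CPM in ARE+/-, and 20.96, 7.896 and 24.72 CPM in WT. WT replicate 2 lay among the mutant libraries, and the other WT libraries above all of them. The log2 fold change of ARE+/- against WT was -1.22 ± 0.41 (SE; unadjusted p = 0.0147, edgeR adjusted p = 0.217). Without WT replicate 2 it was -1.58 and passed, with an edgeR adjusted p of 0.042. ARE-/- against WT was -0.74 with all libraries and -0.79 without ARE-/- replicate 1 (edgeR adjusted p = 0.353 and 0.393).

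Ptgfr had 8.108, 18.76 and 11.86 CPM in ARE-/-, 22.49, 19.18 and 11.34 CPM in ARE+/-, and 6.675, 19.8 and 4.978 CPM in WT uteri. Sfrp4 had 32.49, 101.8 and 92.79 CPM in ARE-/-, 82.85, 86.73 and 107.9 CPM in ARE+/-, and 38.79, 157.9 and 45.26 CPM in WT uteri. In both genes WT replicate 2 was well above the other WT libraries, and the groups overlapped. On the log2 scale ARE-/- against WT was 0.30 for Ptgfr and -0.092 for Sfrp4 with all libraries, and 0.545 for Ptgfr and 0.27 for Sfrp4 without ARE-/- replicate 1 (edgeR adjusted p of 0.645 to 0.95). Amhr2 had 12.47, 3.098 and 0.359 CPM in ARE-/-, 1.533, 3.298 and 0.718 CPM in ARE+/-, and 3.458, 5.847 and 3.12 CPM in WT uteri. Its log2 fold change for ARE-/- against WT was 0.36 with all libraries and -1.25 without ARE-/- replicate 1 (edgeR adjusted p = 0.876 and 0.466). For Lhcgr the same values were 2.71 and -2.86 (0.451 and 0.424).

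Of the 123 pathway genes 3 rose and none fell in ARE-/- against WT uteri by edgeR (2.44%, against 3.75% of all genes). Without ARE-/- replicate 1 the counts were 4 and 0 (3.25%, against 4.38% of all genes), and 2 genes, Arrb2 and Wnt2, were called with and without it. Arrb2 rose to 65.4 ± 16.4 CPM in ARE-/- uteri, against 28.6 ± 6.87 CPM in WT uteri, the same direction as in the ovary, and its log2 fold change without ARE-/- replicate 1 was 1.26 (edgeR adjusted p = 0.0208). Sfrp1, a relative of Sfrp4, rose by 1.62 on the log2 scale (edgeR adjusted p = 0.0471), and without ARE-/- replicate 1 the value was 1.25 (0.0971). Wnt2, a Wnt ligand, was at 7.23 ± 9.69 CPM in ARE-/- and 0.261 ± 0.148 CPM in WT uteri, with a fitted difference of 4.76 on the log2 scale, or 2.62 without that replicate (adjusted p of 0.0353 and 0.0271 by edgeR). In the same comparison all 6 fat cell, all 5 red cell, all 7 T cell and 6 of 7 macrophage markers rose, with median log2 fold changes of 6.32, 4.02, 2.87 and 1.80. T cell markers summed to 95.8 to 113 CPM in ARE-/- and 13.1 to 15 CPM in WT uteri, and fat cell markers to 460 to 6175 CPM in ARE-/- and 21.1 to 27.6 CPM in WT uteri. In ARE-/- replicates 1, 2 and 3 the fat cell sums were 6175, 871.7 and 460.4 CPM. Their red cell sums were 7265, 1300 and 837.7 CPM, against 95.95 to 219.7 CPM in WT uteri. Calls of these cell markers were not counted without ARE-/- replicate 1. The part of these cells in the uterus values was not tested.

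Whether the ARE-/- effect differed between the ovary and the uterus was tested as an interaction, and none of the 8 genes was called by edgeR (0.169% of 26682 genes) or DESeq2, with 2, Fshr and Esr2, at an unadjusted p under 0.05 (14.1% of genes). The fitted differences, ovary minus uterus, were -4.46 ± 1.85 for Fshr and -4.40 ± 1.79 for Esr2 on the log2 scale (edgeR adjusted p = 0.303 and 0.295). Without uterus ARE-/- replicate 1 they were 2.58 and 2.11, so their sign rested on that library. For Prlr the difference was -0.88 ± 0.77 and for Sfrp4 -2.23 ± 1.44, and without that library -0.83 and -2.59. For the ARE+/- effect the count was 0 by edgeR (0.00375% of genes called) and DESeq2, also at an unadjusted p under 0.05 (8.92% of genes).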

How the data were processed

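The authors' deposited tables, 1 per tissue, hold raw counts per gene from featureCounts 2.0.4 on GENCODE M32, per the file headers. The headers show that multi-mapping and multi-overlapping reads were counted, mates were counted singly and no strand was set, so 71.5% of counts from 1 to 20 were even. Reads were aligned with STAR to mm10, per the submitters' processing notes, although M32 annotates a later build. The authors' deposited DESeq2 tables, named in the submitters' processing notes, give p-values of a likelihood-ratio test, of which only those of the 8 genes were listed. The deposited log2 values and their errors compare genotypes that the file does not name, and were not used. The deposited score, the test's statistic, and the deposited signal, a mean of scaled counts, were not used either. RefSeq upstream sequences are of GRCm38.p6 and were not joined to the M32 coordinates.

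Tests used edgeR (version 4.0.16, under R 4.3.3) with filterByExpr, TMM and a robust quasi-likelihood fit over the 9 libraries of a tissue, or over 18 for tissue differences. Adjustment was by Benjamini-Hochberg over all genes tested, at 0.05. Each SE is the fitted difference over the root of F. TMM factors were 0.978 to 1.03 in the ovary and 0.838 to 1.07 in the uterus, and common biological coefficients of variation were 0.281 and 0.411. Symbols matched 52029 identifiers (91.3%). A chi-square of replicate counts over its degrees of freedom was at least 16.4, so no library was a copy. All sample columns were used. Likeness and correlations use log2 CPM with a prior count of 2. The intervals are fitted 95% intervals, and the limit for a count of 0 is 3 counts and covers counting error only. Alternatives were DESeq2 1.42.0, RLE factors, library totals, no filter, halved counts, a replicate block, the 2 groups alone and leaving out each library. Fits were tested on simulated data, where the share of false calls was above the nominal threshold in the genotype fits of both tissues. For ARE-/- against WT, 51% of simulated 2-fold changes were recovered in the ovary and 5% in the uterus. For 4-fold changes the shares were 94% and 67%, so a gene not called in the uterus may still differ 2-fold. The changed genes were drawn at random from those over 1 CPM, so these shares are not those of the 8 genes. In the ovary Ptgfr and Sfrp4, with SEs of 1.28 and 1.37, were not called at ARE-/- means 0.228 and 0.201 times WT. A gene of the 8 not called in the ovary may thus also differ by as much. Named partners are the called genes of each list, at most 4 by smallest p, plus others chosen after their values were seen. The latter were Jak2, Stat3, Stat5b, Akr1c18, Hsd17b7, Amh, Esr1, Bmpr1b and Prkar2b. One called gene of these lists is not reported here by name. The 8 genes, the lists and the markers were chosen with earlier results of these data known. Counts over the pathway lists and the luteal markers without a library were added after the values were seen.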

Additional observations from a re-analysis of the deposited data

How the results depend on the processing

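Of 1242 refitted log2 fold changes, 1194 kept their direction and their side of the threshold. Replicate numbers of the titles were not taken as pairs, as the labels name no batch. Same-numbered deviations had an r of -0.16 to 0.0137 in the ovary, none of 5 over 0.1, against 6 of 22 differently numbered pairs. In the uterus their r was -0.0348 to 0.343, 5 of 9 over 0.1, against 1 of 18 differently numbered pairs. Whether same-numbered uterus libraries share a batch was not tested. The replicate block was run only as an alternative. With it, 3 of the 8 genes were called for ARE-/- against WT in the ovary (Lhcgr -1.92, Prlr -2.49, Esr2 -0.70) and 2 for any genotype difference, against 0 without it. In the ovary the numbers 6 and 4 occur in 1 group each, so the block gives ARE-/- replicate 6 and ARE+/- replicate 4 no weight. Under the block 4 values not called changed sign: Esr2 for ARE+/- against WT (0.039) and Parm1 for ARE-/- against ARE+/- (-0.045) in the ovary, Amhr2 for ARE-/- against WT in the uterus (-0.39) and Amhr2 in the ARE-/- interaction (0.051). Halved counts turned Fshr in the ARE+/- interaction (-0.19). The cause was not tested.

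Leaving out 1 library at a time gave 0 to 3 called genes for ARE-/- against WT in the ovary, 0 to 1 for ARE+/- against WT in the uterus and 6 to 7 for WT ovary against WT uterus. Log2 fold changes that changed sign ranged, in the ovary, from -1.43 to 0.13 (Lhcgr) and -0.081 to 0.22 (Parm1) for ARE-/- against ARE+/-, and from -0.081 to 0.52 (Parm1) and -0.28 to 0.096 (Esr2) for ARE+/- against WT. In the uterus they ranged for ARE-/- against WT from -2.86 to 3.29 (Lhcgr), -1.25 to 0.86 (Amhr2), -0.43 to 0.85 (Sfrp4) and -0.076 to 1.14 (Ptgfr), for ARE-/- against ARE+/- from -3.16 to 3.78 (Lhcgr), -0.079 to 2.22 (Amhr2), -0.56 to 0.078 (Sfrp4) and -0.054 to 0.80 (Parm1), and for ARE+/- against WT from -1.07 to 0.91 (Lhcgr) and -0.14 to 1.14 (Sfrp4). In the interactions they ranged from -4.68 to 2.08 (Lhcgr), -8.02 to 2.58 (Fshr), -0.96 to 1.15 (Amhr2) and -4.99 to 2.11 (Esr2) for ARE-/-, and from -1.47 to 0.66 (Lhcgr), -3.39 to 3.36 (Fshr) and -0.45 to 5.90 (Esr2) for ARE+/-. The call of WT ovary against WT uterus was lost for Sfrp4 without uterus WT replicate 1 or 3, and DESeq2 gave 6 there, with no adjusted p for Esr2. Over all genes DESeq2 called 3904 for ARE-/- against WT and 1338 for ARE+/- against WT in the ovary, where edgeR called 2558 and 417, and 2276 and 1305 in the uterus, where edgeR called 911 and 276. With 3 libraries per group, spread between libraries rather than depth limits the ovary comparisons of these genes, and estrous stage is not given in the sources used here.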
